A study of Homo sapiens with 12 samples.

Results

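The control state of RKO, an established human colon carcinoma cell line, was described from the 4 control libraries of a series of 12. They were 2 libraries of unmodified cells that carry intact PRDM1 (wild type) and 2 of cells overexpressing green fluorescent protein (GFP), chosen by their titles. The other 8 libraries came from RKO cells in which PRDM1, a zinc finger transcriptional repressor, was knocked out (derivatives KO2 and KO5) or overexpressed as its alpha or beta form, with 2 libraries in each group. All cells were grown in the same serum-containing medium and kept below confluence, and their polyadenylated RNA was sequenced. The labels give neither the vector and promoter of GFP nor whether each derivative is a clone. Since nothing in them tells whether 2 libraries of a group are separate cultures, p-values here capture the spread between libraries only, and that spread may be technical.

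The colon epithelium is renewed by stem cells at the crypt base, which depend on Wnt signalling and give rise to absorptive colonocytes, mucus-secreting goblet cells, hormone-secreting enteroendocrine cells and chemosensory tuft cells. Paneth cells, which secrete antimicrobial peptides, belong to the small intestine. Homeodomain factors such as CDX1 and CDX2 set intestinal identity, and E-cadherin (CDH1) and EPCAM hold epithelial cells together. RKO is known as a poorly differentiated line.

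The wild-type libraries held 36503307 and 55961821 gene counts and the GFP libraries 25414550 and 27509340. Levels are given as CPM, the counts of a gene scaled to the gene counts of its library. A count of 0 allows up to 3 counts, which is 0.0536 CPM in the deepest control library and 0.118 CPM in the shallowest, for counting error only. Replicate libraries differed by more than the sampling noise, with a chi-square per degree of freedom of 2.72 in wild type and 2.88 in GFP. The common biological coefficient of variation over the 12 libraries was nevertheless only 2.18%. PRDM1 itself had 4 and 4 counts in wild type and 2 and 6 with GFP, so it was nearly silent in both control groups. GFP transcripts were not analysed here.

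RKO cells transcribed the same broad set of genes in both control groups. Of 26364 genes in the files, 11432 were expressed, meaning at least 1 CPM in all 4 control libraries, and 10777 of these are protein coding. A further 12271 genes were silent, meaning under 0.1 CPM in all 4, including 9565 with no count at all, and 2661 lay in between. No gene expressed in both libraries of one group was silent in both of the other. A total of 106 genes reached 1 CPM in both wild-type libraries but not in both GFP libraries, and 46 did the reverse. The highest mean level among these was 1.44 CPM, so they were genes close to the threshold.

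Counts were spread over many genes. The 10 most abundant genes took 5.63% to 5.83% of the gene counts of a control library, the top 100 took 18.3% to 18.8%, and the top 1000 took 49.9% to 50.3%. Levels of different genes were compared as CPM per kilobase of transcript, computed here with reference transcript lengths. EEF1A1, the translation elongation factor that delivers tRNA to the ribosome, ranked first at 6443 and 6339 CPM per kilobase in wild type and 6197 and 6423 with GFP. The groups overlapped. Of the 20 genes at the top of this ranking 15 encode ribosomal proteins, led by RPL7A at a mean of 4451, RPL7 at 4254 and RPL41 at 3188 CPM per kilobase. Ribosomal protein genes also made up 62 of the top 100. The other genes of the top 20 were the glycolytic enzyme gene GAPDH (3004), the ferritin light chain gene FTL (2024), TPT1 (1998, which encodes a translationally controlled protein) and the cytosolic chaperone gene HSP90AB1 (1996). The order depends on the scale, and 8 of these 20 genes were also among the top 20 by CPM.

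Genes of basic cell functions served as a check on what a level near 0 means in these files. All 69 nuclear oxidative phosphorylation genes, all 44 G1/S genes and all 52 G2/M genes were expressed. Among 79 cytoplasmic ribosomal protein genes 78 were expressed, and the exception was RPL21, a ribosomal protein that every cell needs, with 1 and 1 counts in wild type and 0 and 0 with GFP. RPL36A, RPS10 and RPL17 were the next lowest, at 11.7, 34.1 and 46.5 CPM, and each shares exons on its own strand with a readthrough gene, over 26.6%, 55.6% and 53.4% of its exonic bases. What part the assignment of reads has in a listing at 0 was not tested gene by gene. Exons of CDH1, EPCAM, LGR5 and CD44, described next, overlap no other gene on the same strand in the reference annotation (0.0% of exonic bases). The same holds for RPL21 (0.0%), so a lack of overlap does not show that a count of 0 reflects absent RNA.

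Most genes on lists of differentiated cells of the intestine were silent in the control libraries. The stem cell list was divided, with 9 of 23 silent. Of 99 members of 6 lineage lists 72 were silent, which is 72.7%, against 35.5% of all protein-coding genes, and 49 of the 72 had no count in any control library. Another 16 were expressed and 11 lay in between. The expressed members came mainly from the stem cell list, with 12 of the 16. In bulk RNA fewer cells of a type and less RNA per cell cannot be told apart. The spread of levels is shown in the plot of lineage genes by library.

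**Figure D1:**
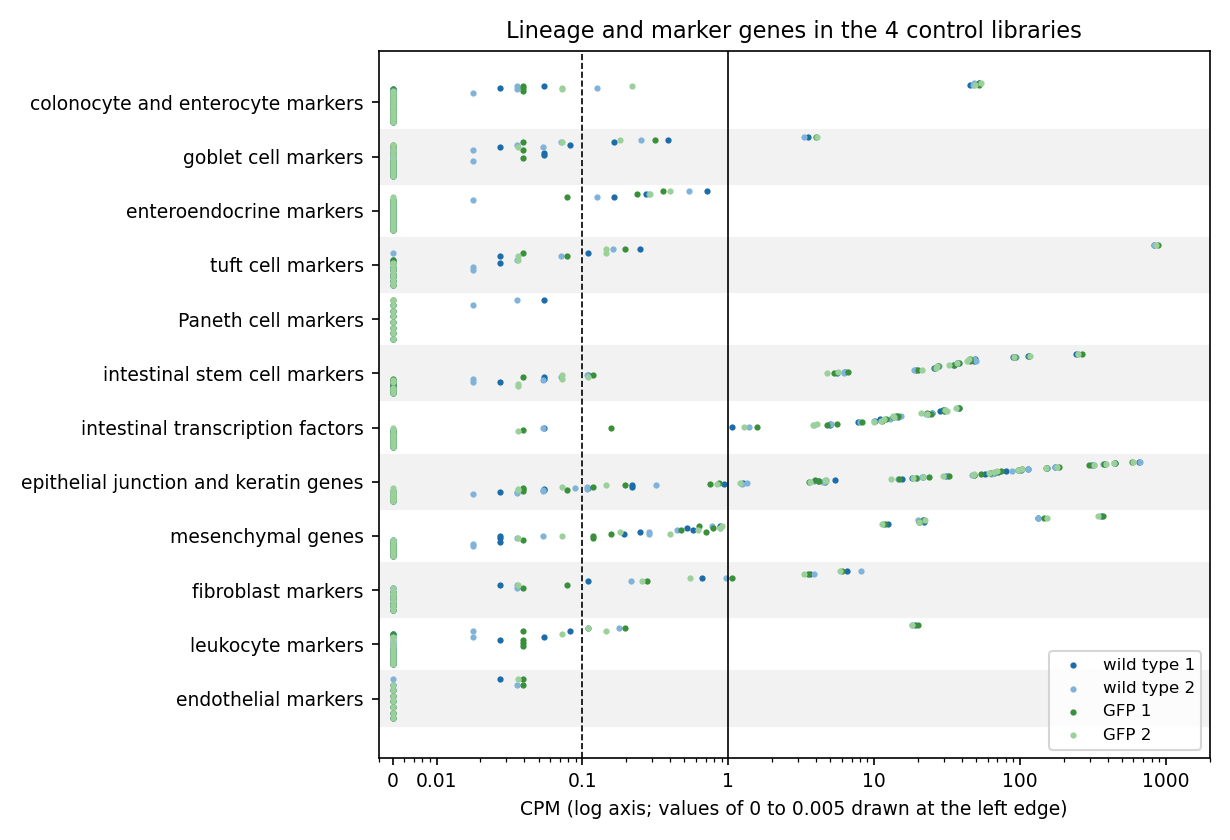
CPM (log axis) of each gene of 12 marker lists in the 4 control libraries, 1 point per gene and library, ordered by mean level within a list. The solid line marks 1 CPM and the dashed line 0.1 CPM, and values of 0 are drawn at the left edge. Most absorptive, secretory, Paneth, fibroblast, leukocyte and endothelial markers sit at the left edge or below 0.1 CPM, and single genes such as DCLK1 at 850 CPM stand far above the rest of their list.

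Absorptive markers were almost all missing. Of 25 colonocyte and enterocyte genes 21 were silent and 18 had no count, among them the fatty acid binding protein gene FABP1, the chloride exchanger gene SLC26A3, the carbonic anhydrase gene CA1, the cadherin gene CDH17 and the alkaline phosphatase gene ALPI. The brush border gene VIL1 had 1 count in the 4 libraries together, in a GFP library, and the colonocyte keratin gene KRT20 had 1, in a wild-type library. Only CA2, another carbonic anhydrase, and the sulphate transporter gene SLC26A2 were expressed. CA2 stood at 52.4 and 48.5 CPM in wild type and 52.0 and 53.9 CPM with GFP. SLC26A2 had a mean of 48.4 CPM over the control libraries. The CA2 values of the groups overlapped.

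The secretory lineages were as sparse. Of 16 goblet cell genes 13 were silent: the mucin gene MUC2 had 0 and 1 counts in wild type and 0 and 0 with GFP, and TFF3, AGR2 and CLCA1 had none. The secretory fate factor ATOH1 had 6 and 4 counts in wild type and 1 and 2 with GFP, and the goblet factor SPDEF had 3 and 2 against 0 and 0. REP15, a Rab effector, was the single expressed member at a mean of 3.72 CPM, and a gene on the opposite strand covers 42.7% of its exonic bases. Of 15 enteroendocrine genes 12 were silent and none was expressed. Chromogranin A (CHGA) and the factors NEUROD1, INSM1 and NEUROG3 had no count, and the highest member was TPH1, the enzyme of serotonin synthesis, at 0.501 CPM. All 8 Paneth cell genes in the files were silent, lysozyme (LYZ) and the defensin gene DEFA6 with no count.

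The tuft cell list showed 1 abundant gene among silent ones. DCLK1, a microtubule-associated kinase used as a tuft cell marker, had 831 and 827 CPM in wild type and 879 and 862 CPM with GFP. It ranked 102nd of all genes by CPM, and per length it stood at 149 CPM per kilobase. The small difference of its groups did not pass (log2 fold change 0.07 ± 0.03 standard error, adjusted p = 0.0514, edgeR), although it passed with DESeq2 size factors (adjusted p = 0.0284). With the GC trend described below removed, the adjusted p was 0.787. In the knockout derivatives its level was 1233 and 1221 CPM in KO2 and 293 and 308 CPM in KO5. POU2F3, the factor that specifies tuft cells, had no count, and the tuft cell channel gene TRPM5 had 3 counts in all. Of the 12 members 9 were silent, so DCLK1 stood alone on its list.

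Stem cell genes split into an expressed and a silent group. Of 23 members 12 were expressed and 9 silent. The cell cycle kinase gene CDK6 led with a mean of 252 CPM, followed by the MYC target CDCA7 at 115 CPM and the Wnt feedback gene AXIN2 at 91.2 CPM. The ephrin receptor gene EPHB2 stood at 46.9 CPM, the RNA-binding protein gene MSI1 at 46.6 CPM and the ErbB antagonist gene LRIG1 at 37.7 CPM. In contrast, the R-spondin receptor gene LGR5 and the surface marker genes CD44 and PROM1 had no count in any control library, nor had the Wnt inhibitor gene APCDD1. The crypt factors ASCL2 and SOX9 had 1 and 3 counts in the 4 libraries together. EPHB3, a relative of EPHB2, had 5. Wnt feedback genes behaved in the same divided way, with 11 of 18 expressed and 5 silent.

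Transcription factors of intestinal identity were present in part. Of 26 listed, 13 were expressed and 12 silent. The homeodomain factor CDX2 was read at 14.1 and 15.2 CPM in wild type and 14.6 and 13.5 CPM with GFP, and the groups overlapped. Its relative CDX1 had no count. GATA4 and GATA6, factors of endoderm, had means of 14.0 and 11.9 CPM, and KLF5 had 30.3 CPM. HNF4G was expressed at 10.7 CPM while its relative HNF4A had no count, and FOXA2, GATA5, ISX and EHF also had none.

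HOX genes, which record position along the body axis, were broadly expressed. Of 39 members 29 were expressed and 6 silent. The HOXB cluster had 9 of 10 members expressed, with HOXB9 at a mean of 43.6 CPM and HOXB2 at 42.9 CPM. The HOXA cluster had 8 of 11, led by HOXA10, and the HOXC cluster 8 of 9, led by HOXC8 at 13.4 CPM. In the HOXD cluster 4 of 9 were expressed and 4 silent, the silent ones being HOXD10 to HOXD13. None of the 32 HOX genes tested passed between GFP and wild type, and 1 of them rose with the GC trend described below removed.

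Epithelial genes were likewise divided. Of 38 keratin, junction and epithelial regulator genes 20 were expressed, 6 lay in between and 12 were silent. The simple epithelial keratin genes KRT8 and KRT18 had mean levels of 623 and 314 CPM, beta-catenin (CTNNB1) 447 CPM, the tight junction scaffold gene TJP1 178 CPM, the desmosomal cadherin gene DSG2 152 CPM and the splicing regulator gene ESRP2 63.7 CPM. CDH1 and EPCAM had no count in any of the 4 libraries, and neither had the keratin gene KRT19, the desmocollin gene DSC2, the regulators GRHL2 and OVOL1, or ESRP1, the partner of ESRP2. The claudin genes CLDN4 and CLDN7 had 8 and 3 counts over the 4 libraries. JUP, a desmosomal plaque gene, had 4 counts over the 4 libraries, so keratin and desmosomal genes were each divided. Of the markers of the labelled cell type, a colon epithelial carcinoma, KRT8, KRT18 and DSG2 were thus expressed and the 2 defining adhesion genes, CDH1 and EPCAM, were not.

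The mesenchymal list was no more complete. Of 21 members 5 were expressed and 9 silent. The receptor kinase gene AXL had a mean of 359 CPM, caveolin 1 (CAV1) 141 CPM, and the repressors of CDH1, ZEB1 and SNAI1, 21.4 and 11.8 CPM. Vimentin (VIM) had 0.575 and 0.447 CPM in wild type and 0.472 and 0.618 CPM with GFP. Its groups overlapped, and a gene on the opposite strand covers 52.6% of its exonic bases. N-cadherin (CDH2) had 1 count, and ZEB2, TWIST1, SPARC and THBS1 had none.

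Markers of other cells were low or missing. All 8 endothelial genes were silent. Of 14 leukocyte genes 11 were silent, PTPRC, CD3E and CSF1R with no count, and the lysosomal gene CD68 was the expressed one at 18.9 CPM. Other annotation on the same strand covers 95.3% of the exonic bases of CD68, so its counts are uncertain. Of 12 fibroblast genes 8 were silent, COL3A1 and DCN with no count, while the collagen gene COL1A1 and the receptor gene PDGFRB had 6.63 and 3.58 CPM. Cancer-testis genes, which are germline genes reactivated in some tumours, were silent in 28 of 30 cases. PRAME was the exception at a mean of 77.1 CPM.

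Among DNA mismatch repair genes PCNA, the sliding clamp, had a mean of 364 CPM, and the MutS genes MSH6 and MSH3 had 147 and 3.43 CPM. Genes whose promoters are often methylated in colon cancer were silent in 28 of 41 cases, or at 0 counts in 22, among them the Wnt antagonists SFRP1, SFRP2, SFRP5 and WIF1, the factor RUNX3 and the protease inhibitor gene TIMP3. MGMT, a DNA repair gene of the same list, was expressed at 15.2 CPM. DNA methylation was not measured in this series.

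Silent genes had promoters of very different CpG content. The promoter window was taken as 250 bases before to 50 bases after the start of the gene, from RefSeq on GRCh38.p14. Only the first listed window of a gene symbol was used, and whether RKO cells use that start was not tested. The letters CG, which read the same on both strands, occur at least once in 95.8% of 27305 such windows, with a median of 14. Expressed protein-coding genes had a median of 27 CG and silent ones a median of 7. Of the silent lineage genes 48 had a window, with a median of 6.5 CG. Of these 6 held 27 or more (12.5%, against 18.6% of silent protein-coding genes): NKX2-2 (35), APCDD1 (33), ANPEP (32), NEUROD1 (31), NEUROG3 (31) and SMOC2 (28). Of the silent genes of the promoter-methylated list 21 had a window, with a median of 26, and 10 held 27 or more (47.6%). That share was 52.2% among expressed protein-coding genes and 27.9% among all windows. The windows below show an expressed identity factor, a silent stem cell gene with many CG, a silent one with an intermediate number and a silent colonocyte gene with few. Capitals mark each CG.
CDX2 (chr13:27969266-27969565, minus strand): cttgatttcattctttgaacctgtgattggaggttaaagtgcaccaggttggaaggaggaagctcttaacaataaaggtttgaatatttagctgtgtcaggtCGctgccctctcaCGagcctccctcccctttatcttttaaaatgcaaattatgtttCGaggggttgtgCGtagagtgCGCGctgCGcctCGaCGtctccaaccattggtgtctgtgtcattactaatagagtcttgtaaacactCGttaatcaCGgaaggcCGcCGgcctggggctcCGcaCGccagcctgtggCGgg
APCDD1 (chr18:10454385-10454684, plus strand): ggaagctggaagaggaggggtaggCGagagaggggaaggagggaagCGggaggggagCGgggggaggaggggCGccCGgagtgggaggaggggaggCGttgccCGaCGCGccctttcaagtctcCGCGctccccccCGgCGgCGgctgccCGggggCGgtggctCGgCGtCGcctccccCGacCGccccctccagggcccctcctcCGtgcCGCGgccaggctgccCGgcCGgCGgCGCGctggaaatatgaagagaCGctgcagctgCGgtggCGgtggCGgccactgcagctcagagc
CD44 (chr11:35138921-35139220, plus strand): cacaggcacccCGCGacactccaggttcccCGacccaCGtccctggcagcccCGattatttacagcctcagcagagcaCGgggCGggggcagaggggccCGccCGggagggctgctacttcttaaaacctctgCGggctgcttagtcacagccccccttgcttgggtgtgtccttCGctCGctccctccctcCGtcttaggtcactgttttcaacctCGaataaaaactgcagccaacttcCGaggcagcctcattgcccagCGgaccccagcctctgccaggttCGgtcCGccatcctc
KRT20 (chr17:40885193-40885492, minus strand): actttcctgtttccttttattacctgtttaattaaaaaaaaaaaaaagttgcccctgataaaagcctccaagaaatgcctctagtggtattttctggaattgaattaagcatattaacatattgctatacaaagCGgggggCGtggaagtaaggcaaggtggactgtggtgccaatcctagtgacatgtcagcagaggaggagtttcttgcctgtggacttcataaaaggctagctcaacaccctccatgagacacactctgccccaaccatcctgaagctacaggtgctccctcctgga
The CDX2 window held 16 CG, a number reached by 47.4% of all windows, and the gene was expressed. APCDD1 held 33, reached by 16.9% of windows, and CD44 held 18, reached by 44.5%, yet neither gene had a count. The 2 CG of KRT20 were reached by 88.5%.

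GFP cells differed from wild-type cells in many genes by very small amounts. Of 12858 genes tested 2444 passed at an adjusted p under 0.05, which is 19% of genes, with 1133 higher with GFP (8.81%) and 1311 lower (10.2%). These and the following values are from edgeR's quasi-likelihood test with Benjamini-Hochberg adjustment, and n = 2 libraries per group. The median absolute log2 change of the genes that passed was 0.16, and 87.9% of them changed less than 1.2-fold. Only 38 genes (0.296%) passed and changed at least 1.5-fold, 14 up and 24 down, and 18 (0.14%) at least 2-fold, 6 up (0.0467%) and 12 down (0.0933%). Over all genes the median absolute log2 difference was 0.09 between GFP and wild type, 0.05 between the wild-type libraries and 0.07 between the GFP libraries. It was 0.10 between KO2 and wild type and 0.16 between KO5 and wild type. The number of calls fell to 645 without wild-type replicate 2, the deepest library, and to 1079 without GFP replicate 2.

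**Figure D2:**
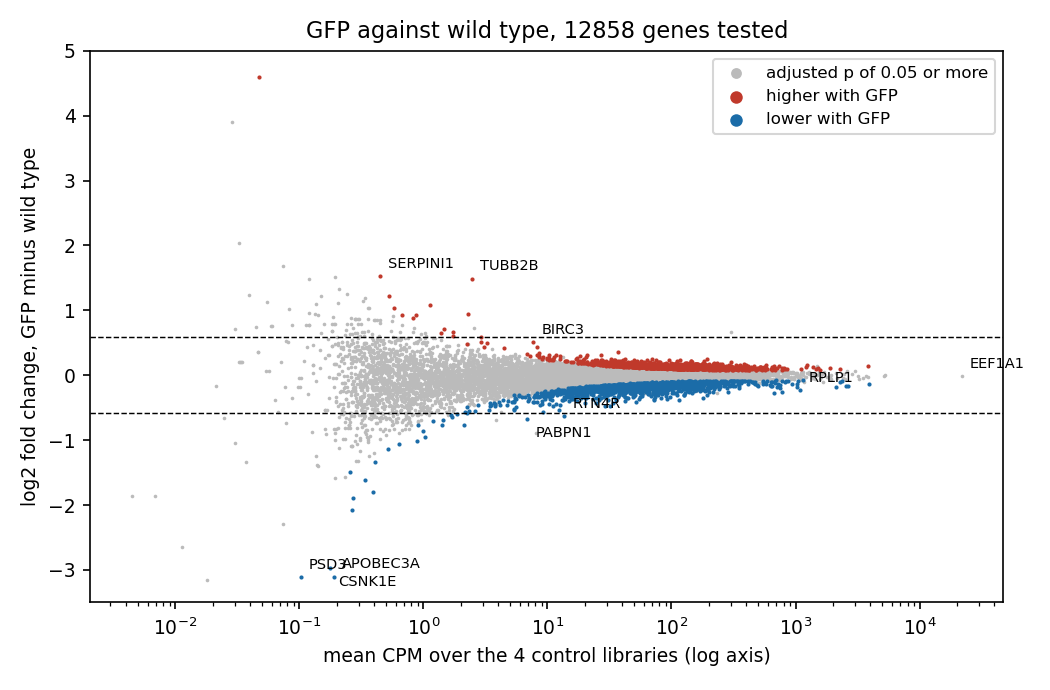
Log2 fold change of GFP against wild type for each gene tested, against its mean CPM over the 4 control libraries (log axis). Red and blue points passed the adjusted p of 0.05, dashed lines mark 1.5-fold, and the change of a gene with no count in a group depends on the prior count. Nearly all genes that passed lie between the dashed lines, and 36 of the 38 outside them are below 5 CPM in the higher group.

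These differences followed the GC content of the transcripts. Among the fifth of genes with the lowest GC content, 31.0% to 41.9%, 765 rose and 4 fell, and their median log2 difference was 0.10. In the fifth with the highest GC content, 59.0% to 76.2%, 5 rose and 957 fell, and the median was -0.15. Across 12547 genes the Spearman correlation of the difference with GC content was -0.66. The same correlation was -0.52 for KO5 minus wild type, -0.07 for KO2 minus wild type, -0.29 for wild-type replicate 1 minus 2 and 0.13 for GFP replicate 1 minus 2. Genes are not independent replicates, and the values against wild type share its libraries. With a smooth trend on GC content and length removed, 142 genes passed, 97 higher and 45 lower, and 108 of them were called in the same direction before. What gave the trend was not tested.

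**Figure D3:**
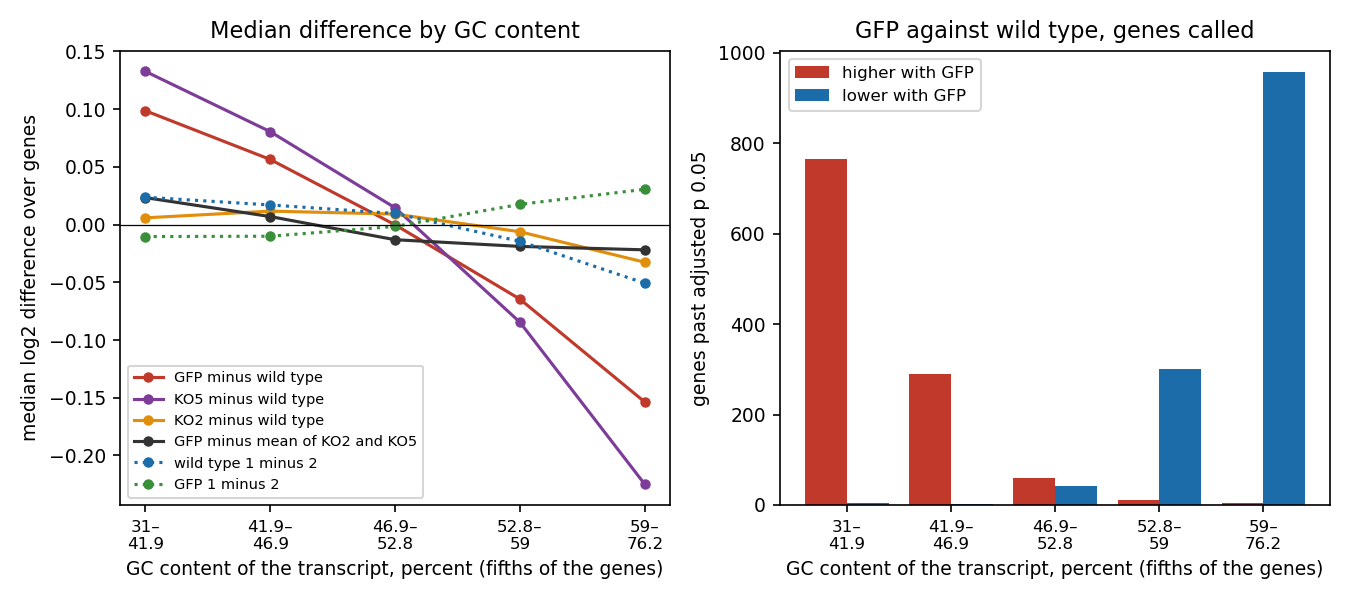
Left, median log2 difference of genes in 5 equal groups of transcript GC content (percent), for group differences (solid) and replicate differences (dotted). Right, bars from 0 with the number of genes higher or lower with GFP at an adjusted p under 0.05 in each group, where 765 rises stand in the lowest GC group and 957 falls in the highest.

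Among genes of at least 5 CPM, the largest rises with GFP were modest. MYBL1, a MYB family transcription factor, had 32.0 and 32.6 CPM in wild type and 41.9 and 41.0 CPM with GFP. All GFP values were higher, and it rose by 0.36 ± 0.05 (log2 ± standard error, adjusted p = 4.34e-06). NAV3, a microtubule-binding protein gene, had 23.4 and 24.4 CPM in wild type and 31.5 and 28.2 CPM with GFP. It rose by 0.32 ± 0.06 (adjusted p = 1.19e-04), again without overlap. In the knockout derivatives NAV3 stood above both control groups, at 45.3 and 46.0 CPM in KO2 and 79.0 and 83.0 CPM in KO5. MYBL1 stood above them in KO2 (60.4 and 55.6 CPM) and below them in KO5 (24.7 and 26.7 CPM). Both genes kept their calls with the GC trend removed (0.28 and 0.31) and with each library left out.

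BIRC3, an inhibitor of apoptosis and NF-kB target, showed the largest rise by this rule. It had 6.90 and 5.83 CPM in wild type and 9.09 and 8.80 CPM with GFP, a rise by 0.51 ± 0.10 (adjusted p = 3.65e-04). Without wild-type replicate 2 the call was lost (0.38, adjusted p = 0.0608). The other rises were IFT88 (a gene of ciliary transport, 0.44), RGS2 (a regulator of G protein signalling, 0.42), the long noncoding RNA gene CRNDE (0.34), RNF146 and ZNRF2 (ubiquitin ligases, 0.32 and 0.31), ID2 (an inhibitor of basic helix-loop-helix factors, 0.32), the zinc finger gene ZNF799 (0.31), PCMTD1 (0.30) and the sorting nexin gene SNX16 (0.30). Of the 12 rises 5 still passed with the GC trend removed (BIRC3, MYBL1, NAV3, ZNRF2 and ZNF799), and 3 (MYBL1, NAV3 and SNX16) kept the call with each library left out in turn. Of the 9 that lost it, 8 lost it without wild-type replicate 2, and IFT88, RGS2, CRNDE, RNF146, ID2 and ZNRF2 lost it without GFP replicate 2. ID2 also lost it without wild-type replicate 1, and ZNF799 and PCMTD1 without GFP replicate 1.

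The largest falls were of similar size. PABPN1, the nuclear poly(A)-binding protein, had 7.81 and 9.10 CPM in wild type and 4.84 and 5.85 CPM with GFP, and fell by 0.67 ± 0.12 (adjusted p = 5.50e-05). A readthrough gene covers 19.7% of its exonic bases on the same strand, so its counts are uncertain. RTN4R, the Nogo receptor, had 15.8 and 17.2 CPM in wild type and 10.9 and 10.6 CPM with GFP, and fell by 0.63 ± 0.08 (adjusted p = 3.06e-07). In neither gene did the groups overlap. NDUFS7, a subunit of respiratory complex I, had 35.6 and 38.5 CPM against 27.1 and 26.4 CPM, and fell by 0.47 ± 0.06 (adjusted p = 3.06e-07), with 55.1% of its exonic bases covered by a gene on the opposite strand. MZT2A, a component of the gamma-tubulin ring complex with a close copy, fell by 0.47 ± 0.06.

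The other falls were C20orf24 (0.54 lower, with a readthrough partner), WASH7P (a pseudogene with near-identical copies), TMEM134, the ceramide-1-phosphate transfer protein gene CPTP, the complement factor D gene CFD, ZNHIT2, the ESCRT gene CHMP6 and the ubiquitin ligase gene MIB2. Of the 12 falls 8 kept the call with each library left out, and TMEM134, CFD, ZNHIT2 and MIB2 lost it without wild-type replicate 2, CFD and MIB2 also without GFP replicate 2. With the GC trend removed 5 passed, namely PABPN1, RTN4R, C20orf24, NDUFS7 and MZT2A. Over both directions 7 genes kept the call under both kinds of check.

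**Figure D4:**
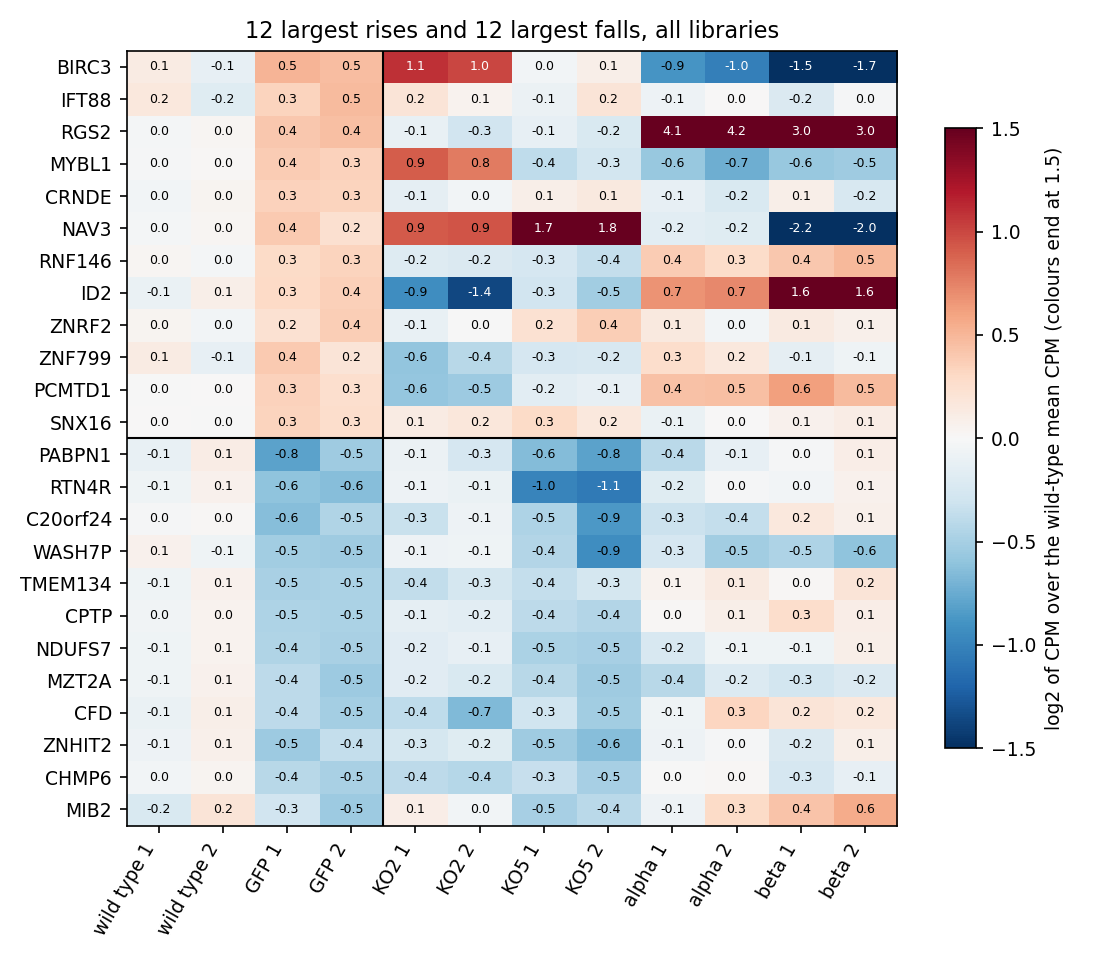
Log2 of the CPM over the wild-type mean CPM for the 12 largest rises and the 12 largest falls (rows) in all 12 libraries (columns). Red is above and blue below the wild-type mean, colours end at 1.5, and the vertical line ends the control libraries. The GFP columns are pale beside some columns of the PRDM1 derivatives, such as ID2 in beta or NAV3 in KO5.

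Larger changes were found among genes with few counts. TUBB2B, a beta-tubulin gene, was chosen after its values were seen. It had 43 and 78 counts in wild type and 78 and 116 with GFP, or 1.18 and 1.39 CPM against 3.07 and 4.22 CPM, and rose by 1.49 ± 0.21 (adjusted p = 3.06e-06). It kept its call with the GC trend removed (1.57) and with each library left out. It did not pass glmTreat's test for a change beyond 1.5-fold (adjusted p = 0.0656), and DESeq2's Wald test gave 1.51 with no adjusted p. The PRDM1 derivatives ranged from 2.23 CPM in a KO5 library to 6.21 CPM in a beta library, and reads of its close copy TUBB2A could be shared. SNHG25, a small noncoding RNA host gene also picked this way, had 1.51 and 1.59 CPM in wild type and 3.19 and 2.80 CPM with GFP. It rose by 0.94 ± 0.18, and another gene covers 48.6% of its exonic bases on the same strand. In the PRDM1 derivatives it ranged from 1.86 CPM in a KO2 library to 3.10 CPM in a beta library, above both wild-type libraries. Against the mean of KO2 and KO5 the change was 0.37 (adjusted p = 0.0702, edgeR). APOBEC3A, a cytidine deaminase gene picked likewise, had 10 and 23 counts in wild type and 0 and 2 with GFP. It passed (adjusted p = 0.00420), but not without wild-type replicate 2 or GFP replicate 1 (adjusted p = 0.0966 and 0.0735). Without wild-type replicate 2 the number of genes that passed and changed at least 1.5-fold was 13. With the GC trend removed it was 9, with TUBB2B, SNHG25, RMRP, RPPH1, P2RY11, PABPN1, APOBEC3A, GOLGA6L9 and LINC00326. Other genes on the same strand cover 100.0% of the exonic bases of RPPH1, 59.1% of P2RY11, 32.0% of GOLGA6L9 and 18.4% of APOBEC3A.

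Most gene lists held small numbers of both rises and falls. Counts of genes that passed are read against 19% of all genes, and medians against an all-gene median of -0.00. The 38 interferon-stimulated genes tested had 2 rises and 2 falls (median log2 0.06). EIF2AK2, the kinase that senses double-stranded RNA, rose by 0.12 and ISG15, a ubiquitin-like modifier, fell by 0.19. The 20 antigen presentation genes had 1 rise and 3 falls (median -0.01). B2M, the light chain of MHC class I, had 541 and 540 CPM in wild type and 573 and 590 CPM with GFP and rose by 0.11, while HLA-E, an MHC class I gene, fell by 0.15. With the GC trend removed no member of either list passed.

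Stress and growth lists varied in their counts. NF-kB targets gave 3 rises and 3 falls among 12, p53 targets 3 and 3 among 24 and immediate early genes 3 and 3 among 26. For ATF4 and amino acid stress genes the counts were 5 and 3 of 26, for unfolded protein response genes 6 and 1 of 22, and for cholesterol synthesis genes 4 and 4 of 23. Of 29 tested genes of MYC and ribosome biogenesis 3 rose and 1 fell, and MYC itself did not pass, at 347 and 352 CPM in wild type and 324 and 344 CPM with GFP. TLR3, a receptor for double-stranded RNA, did not pass either, at 7.64 and 7.77 CPM in wild type and 7.59 and 8.36 CPM with GFP. G1/S genes had 4 and 4 among 44 and G2/M genes 10 and 5 among 52. In the G2/M list KIF20B, a mitotic kinesin gene of 34.2% GC, rose by 0.17, and PLK1, a mitotic kinase gene of 57.3% GC, fell by 0.18. MAPK feedback genes had 1 rise and 4 falls among 19, TGF-beta and BMP targets 3 and 2 among 19, Wnt feedback genes 0 and 1 among 11 and NRF2 and xenobiotic genes 1 and 2 among 13. None of the 19 listed replication-dependent histone genes tested passed, and 1 of them rose with the GC trend removed. HIST1H2BL, a histone gene outside that list and picked after its values were seen, fell by 1.06 (adjusted p = 0.0324, edgeR). It had 28 and 53 counts in wild type and 11 and 11 with GFP. Of 11 mismatch repair genes 2 rose and 2 fell, and POLD1, the catalytic subunit of DNA polymerase delta, fell by 0.32 and still passed with the GC trend removed (-0.13).

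Falls outnumbered rises among hypoxia and glycolysis, respiratory chain and ribosomal protein genes, as they did among all genes (10.2% lower and 8.81% higher). Of 30 hypoxia and glycolysis genes 11 fell and 0 rose (median -0.06, median GC content 55.5%), among them the phosphofructokinase gene PFKL (fell by 0.20) and the phosphoglycerate mutase gene PGAM1 (fell by 0.15). Of 69 nuclear oxidative phosphorylation genes 12 fell and 2 rose (median -0.02), NDUFS7 and NDUFB7 foremost. Among 78 ribosomal protein genes 12 fell and 6 rose (median -0.02). The shares of respiratory chain and ribosomal protein genes that passed, 20.3% and 23.1%, were near the 19% of all genes. RPLP1 of the ribosomal stalk fell by 0.23 ± 0.03, from 1165 and 1203 CPM to 1008 and 1005 CPM. With the GC trend removed the falls were 2, 3 and 2 in the 3 lists, and the change of PFKL turned to 0.03.

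Heat shock chaperone genes had 6 rises and 1 fall among 16 (median 0.07). CHORDC1, a co-chaperone of HSP90, had 178 and 179 CPM in wild type and 206 and 218 CPM with GFP, and rose by 0.25 ± 0.03 (adjusted p = 6.40e-07). HSP90AA1, the inducible cytosolic HSP90 gene, rose by 0.14, and HSPA1B, an HSP70 gene with a near-identical copy, rose by 0.18. These 3 still passed with the GC trend removed. Nuclear-retained and RNA quality genes had 3 rises and 0 falls among 9. These were RMRP and RPPH1, short noncoding RNAs of few counts, and SNHG5 (0.17), and all 3 still passed with the trend removed. Another gene on the same strand covers 100.0% of the exonic bases of RPPH1, so its counts are uncertain. Whether RNA handling moved with the groups was not tested.

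The lineage genes that could be tested barely differed between GFP and wild type. Most differentiation markers had too few counts to be tested. The tests covered 2 colonocyte and enterocyte, 2 goblet cell, 2 enteroendocrine, 1 tuft cell and 0 Paneth cell genes, and none passed. Of the 12 stem cell genes tested only MSI1 passed and fell by 0.15, of 14 intestinal transcription factors only the vitamin D receptor gene VDR passed and fell by 0.18, and CDX2 did not pass (-0.07). Of 22 epithelial genes 4 fell, including KRT8, from 652 and 661 CPM in wild type to 588 and 592 CPM with GFP, a fall by 0.15 ± 0.03. Among 9 mesenchymal genes CAV1 rose by 0.19 ± 0.04, from 132 and 132 CPM to 147 and 154 CPM, and it passed with the GC trend removed (0.15). MSI1, VDR and the 4 epithelial genes did not.

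GFP was also set against the knockout derivatives, which share no libraries with wild type. Against the mean of KO2 and KO5, 3004 of 12858 genes passed (23.4%), 1489 higher and 1515 lower with GFP, and 154 (1.2%) changed at least 2-fold, 137 of them higher (1.07%). The comparison shares the GFP libraries with the one above, so only values are given side by side. MYBL1 was 0.07 (adjusted p = 0.28) and BIRC3 -0.08 (adjusted p = 0.573) against the knockouts, whereas NAV3 was lower by this measure, at -1.06. The BIRC3 value averages knockouts on either side of GFP, with 13.6 and 12.8 CPM in KO2 and 6.19 and 6.79 CPM in KO5, and the same holds for MYBL1. ID2 rose by 0.32 against wild type and by 1.05 against the knockouts. RTN4R was -0.10 (adjusted p = 0.39) against the knockouts, where KO2 held 15.6 and 15.4 CPM and KO5 8.32 and 7.94 CPM, so that KO2 lay near wild type and KO5 below GFP. Without GFP replicate 2 the count was 1869, and with the GC trend removed 33.9% of the 3745 calls were higher.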

How the data were processed

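Polyadenylated RNA of RKO cells was made into stranded libraries, per the labels' protocols. The tools TopHat, Bowtie2 and Cufflinks and the build hg19 are named, per the submitters' processing notes. Tool versions, the read counter and whether it used the strand are not given in the sources used here. The authors deposited whole, unnormalized counts per gene symbol, 1 file per library with 26366 entries. The 2 entries that name no gene, reads without a feature (9.43% to 10.8% in the control libraries) and ambiguous reads (1.67% to 1.74%), were left out. Gene counts of the 12 libraries ranged from 19058967 to 55961821.

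The analysis used edgeR 4.0.16 in R 4.3.3 (filterByExpr with 6 groups, TMM scaling, glmQLFit robust, glmQLFTest). It was fitted to all 12 libraries with 1 mean per group and adjusted by Benjamini-Hochberg. The fit was tried on simulated counts that held no GC trend, so the simulation does not cover the trend seen here. Standard errors are Wald errors. Transcript lengths and GC content came from GENCODE and covered 97.6% of the genes tested, matched by symbol, older symbol or RefSeq synonym. The GC and length trend was a natural spline (5 degrees of freedom) on each, used as an offset. Alternatives used DESeq2 1.42.0, thinned counts, each library left out, glmTreat and a replicate block.

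The members and gene lists were chosen with earlier results of these data known. The 12 largest rises and 12 largest falls named had an adjusted p under 0.05, 5 CPM or more on average in the group with more, groups that did not overlap and no LOC, LINC, MIR, SNOR, SNHG or antisense symbol. Up to 4 members per list that passed could be named, and baseline genes by level or by being defining markers. A fixed set (PRDM1, MYC, TLR3, B2M and lineage markers) was named whether or not it passed. Some genes that these rules select are not reported here. The authors' deposited comparison tables concern other groups and were not used here.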

Additional observations from a re-analysis of the deposited data

How the results depend on the processing

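The count of expressed genes stayed between 10909 and 11946 under other thresholds or with a library left out, and that of silent lineage genes between 63 and 82. Ranking by CPM kept 8 of the top 20 genes. The number of genes that passed between GFP and wild type was less stable. It was 2567 with DESeq2 size factors, with 55.2% higher against 46.4% under TMM, and 1477 with the DESeq2 Wald test (57.5% higher). It was 1596 with libraries thinned to the shallowest, 142 with the GC and length trend removed (68.3% higher), and 645 to 2110 with a library left out. glmTreat, which tests for changes beyond 1.5-fold, passed 0 genes, with 33 at an unadjusted p under 0.05. The DESeq2 Wald test gave TUBB2B a log2 change of 1.51 but no adjusted p. Genes without an adjusted p were not counted as passing, so the counts of the Wald test leave such genes undecided. Genes that passed and changed at least 1.5-fold numbered 0 with the DESeq2 Wald test, with 34 at an unadjusted p under 0.05, 9 with the trend removed, and 13 to 41 with a library left out. Against the knockouts 1907 passed with the Wald test, 115 with glmTreat and 1869 to 2768 with a library left out.

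Replicate differences showed no shift shared by replicate number: their correlation between wild type and GFP was -0.02, and over 15 pairs of groups it ran from -0.07 to 0.06. Whether libraries of the same number shared a culture or day cannot be told from these values, and the labels do not say. With the replicate number as a block 2372 genes passed against wild type and 2922 against the knockouts. With the block and the trend removed 140 passed, 8 of them at least 1.5-fold.

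With the trend removed, and in parentheses with the block as well, falls turned to small positive log2 values for ATP5D 0.0107 (0.0108), EPHA2 0.0182 (0.0179), HLA-C 0.0318 (0.0315), PFKL 0.0322 (0.0304), PHLDA3 0.00399 (0.00237) and SDF2L1 0.0127 (0.0116). Of 108 named genes that passed, 26 kept the call with the trend removed and 44 with every library left out in turn. These counts include genes picked after their values were seen. TUBB2B and SNHG25 kept the call under both checks, and APOBEC3A with the trend removed. Depth limits genes of few counts, since 3 counts are 0.118 CPM in the shallowest control library.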
